A study of Mus musculus with 16 samples.

Results

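The mouse mitochondrial chromosome carries 37 genes, and all 37 were present in spleen RNA tables made from wild-type mice and from mice lacking PKR during imiquimod treatment. They were taken as every gene symbol beginning with mt-, which gave 37 of 55291 symbols: 13 messenger RNAs, 2 ribosomal RNAs and 22 transfer RNAs. Mice were male C57BL/6, either wild type or PKR knockout; the part of the PKR gene that was deleted is not given in the sources used here. Treated mice had 62.5 mg of cream holding 5% imiquimod, an agonist of Toll-like receptor 7, put on shaved back skin each day and were sampled on day 1, 2 or 5, while mice of day 0 received none. Each of the 8 groups, set by genotype and day, had 2 libraries, and each library pooled the spleen cells of 2 mice after a 70-µm mesh and lysis of red cells. No group received cream without imiquimod, so the drug, the cream and the day of sampling cannot be told apart.

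Mitochondrial DNA is transcribed from both of its strands into long RNAs that are cut, mostly at the transfer RNAs that lie between the other genes, into separate messengers, ribosomal RNAs and transfer RNAs. The messengers encode core subunits of complexes I, III and IV of the respiratory chain and of the ATP synthase, whose other subunits are encoded in the nucleus. Nearly all genes are read from one template and are called heavy-strand genes here, whereas mt-Nd6 and some transfer RNAs are read in the opposite direction and are called light-strand genes. RNA of the 2 strands can pair, and such double-stranded RNA is normally removed inside the organelle by the helicase SUPV3L1 and the exonuclease PNPase, while double-stranded RNA in the cytoplasm is what activates PKR.

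Library totals ran from 35026754 to 67333830 fragments. Eif2ak2, which encodes PKR, was checked first. Its level per transcript length (FPKM, fragments per kilobase of transcript, scaled to the library total) on day 0 was 5.88 and 5.78 in the wild-type libraries and 2.74 and 3.35 in the knockout libraries. On day 1 it was 28.1 and 26.6 against 10.1 and 9.18, and on day 5 it was 6.63 and 7.06 against 3.49 and 4.12. On day 2 it was 7.32 and 9.33 in the wild type against 10.98 and 4.65 in the knockout. The first of these 2 knockout libraries thus went against its label, and the main results of day 2 in the knockout are given with and without the library labelled knockout day 2 replicate 1. Markers of B cells (8 genes) and T cells (11 genes), the main cells of a spleen, were present in all libraries, with summed levels on day 0 of 1880 to 2076 and 558 to 626 CPM (the fragments of a gene per megafragment of the library, scaled for composition with TMM factors).

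Markers of several cell types moved with the day. Summed B cell markers ran from 1268 to 1678 CPM at day 1, 1010 to 1321 at day 2 and 988 to 1264 at day 5, all below day 0. Summed T cell markers ran from 117 to 175 CPM in the 4 libraries of day 2. Plasma cell markers (8 genes) stood at 275 to 328 CPM on day 0 and at 1505 to 2714 at day 2. The 12 erythroid precursor markers ran from 507 to 1642 CPM on day 0, from 23.6 to 201 at day 2 and from 7671 to 21707 at day 5. The 10 proliferation genes were higher in all 6 comparisons of a treated day with day 0. In bulk RNA, fewer cells of a type and less mitochondrial RNA per cell cannot be told apart, and the part of these shifts in the mitochondrial results was not tested.

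The 37 genes cover both strands of the mitochondrial chromosome (GRCm38, chromosome M). The 12 heavy-strand messengers, both ribosomal RNAs and 14 transfer RNAs are annotated on the plus strand, and mt-Nd6 and 8 transfer RNAs on the minus strand. The genes are packed closely, and several overlap. mt-Nd5 (ENSMUST00000082418.1, positions 11742 to 13565) and mt-Nd6 (ENSMUST00000082419.1, 13552 to 14070) meet end to end on opposite strands. The last 45 bases of each transcript, from GENCODE mouse release 21, are shown because these 2 neighbours were called in opposite directions on day 5 in the wild type; the 14 bases they share on opposite strands, from 13552 to 13565, are in capitals.
mt-Nd5: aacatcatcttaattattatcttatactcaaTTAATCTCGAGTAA
mt-Nd6: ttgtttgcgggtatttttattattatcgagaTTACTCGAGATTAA
The 2 ends in capitals are reverse complements of each other, so fragments of the 2 genes are told apart there by strand alone. In 22 pairs of nuclear transcripts in which 1 single-exon transcript lies inside another on the opposite strand, the inner one held under 5% of the outer one's fragment density in 22 of 22 (median 0.196%, highest 0.869%). The limits on length and depth behind these pairs were chosen after seeing the data.

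Copies of mitochondrial DNA in the nuclear genome limit at least 7 of the messengers. On chromosome 1, between 24611535 and 24616197, lie 7 annotated copies that match stretches of mt-Co1, mt-Co2, mt-Atp6, mt-Co3, mt-Nd3, mt-Nd4l and mt-Nd4 at 98.8 to 100% identity. Of the 50-base words of these 7 messengers, 51.1% or more occur in a nuclear transcript. The authors' counts of the copy of mt-Co3 were 0.989 to 1.01 times those of mt-Co3 itself across libraries. Those of the copy of mt-Co2 were 0.988 to 1.01 times, and those of the copy of mt-Nd3 0.94 to 1.04 times. The copy of mt-Atp6 had 1.58 to 1.69 times the counts of mt-Atp6, and the copy of mt-Nd4l 0.666 to 0.851 times. For the shorter copies of mt-Nd4 (876 bases) and mt-Co1 (492 bases) the ratios were 0.301 to 0.379 and 0.188 to 0.216. How fragments that match both places were counted is not given, and the values of these 7 genes are uncertain as to their origin. For mt-Nd1, mt-Nd2, mt-Nd5, mt-Nd6, mt-Cytb and mt-Atp8 the share of such words was 8.19% or less, and for mt-Rnr1 and mt-Rnr2 it was 0 and 1.04%. Only annotated nuclear transcripts were searched, so a low share does not show that a gene lacks a nuclear copy. mt-Atp8 lies between mt-Co2 and mt-Atp6, whose copies are neighbours on chromosome 1, and the genome sequence between those copies was not searched. The same holds for transfer RNAs between genes copied there, such as mt-Td, mt-Tk, mt-Tg and mt-Tr, so their origin is not settled either.

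Levels per length differed widely among genes that come from the same long RNA. In wild-type libraries of day 0 mt-Rnr2, the large ribosomal RNA, stood at 10095 ± 730 FPKM and mt-Rnr1, the small one, at 1838 ± 19.4 (mean ± SD, n = 2 here and below). Both are targets of the ribosomal RNA depletion that the library kit performs, and its effect on their levels was not tested. The highest messenger was mt-Co1, the catalytic subunit of complex IV, at 3585 ± 378 FPKM. mt-Atp8 (1983 ± 496), mt-Co3 (1805 ± 309) and mt-Co2 (1470 ± 225) came next, and mt-Atp8 and mt-Co3 did not differ beyond their spread. mt-Atp8 is only 204 bases long and shares 43 of them with mt-Atp6, and how fragments across that overlap were counted is not given. mt-Co1, mt-Co2, mt-Co3 and mt-Atp6 are among the genes with nuclear copies, so the order of these messengers is uncertain. mt-Cytb, the one mitochondrial subunit of complex III, stood at 884 ± 12.6 FPKM, mt-Atp6 at 848 ± 161 and mt-Nd1 at 780 ± 38.4, and these 3 did not differ beyond the spread of mt-Atp6. The remaining complex I messengers were lower, at 338 ± 29.3 for mt-Nd2, 322 ± 59.8 for mt-Nd3, 243 ± 8.74 for mt-Nd4, 188 ± 12.4 for mt-Nd4l and 170 ± 36.2 for mt-Nd5. mt-Nd6 was the lowest messenger, at 34.5 ± 7.98 FPKM, and it was the lowest of the 13 in 15 of the 16 libraries. The exception was the library labelled knockout day 2 replicate 1, in which mt-Nd6 (96.2 FPKM) exceeded mt-Nd5 (79.8), mt-Nd4l (91.9) and mt-Nd4 (94.3).

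All 37 genes together held 2.79 to 4.64% of a library's fragments on day 0 and 1.52 to 2.90% in the treated libraries, and the classes differed in how they moved. On day 0 the 13 messengers held 1.27 and 1.10% of fragments in the wild-type libraries and 1.26 and 1.68% in the knockout libraries. In the wild type they held 1.21 and 1.41% at day 1, 1.13 and 1.43% at day 2 and 0.826 and 0.832% at day 5. The knockout libraries held 0.900 and 1.21% at day 1, 0.833 and 1.42% at day 2 and 0.808 and 0.700% at day 5. Day 5 thus lay below day 0 in all 4 libraries, whereas the wild-type groups of days 1 and 2 overlapped day 0. The day 5 difference from day 0 was -0.52 on the log2 scale in the wild type and -0.95 in the PKR knockout, against a spread between replicates of 0.27 (SD pooled over groups). How fragments in overlapping genes, or fragments that also match the nuclear copies, were counted is not given. These sums are thus uncertain in either direction.

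**Figure D1:**
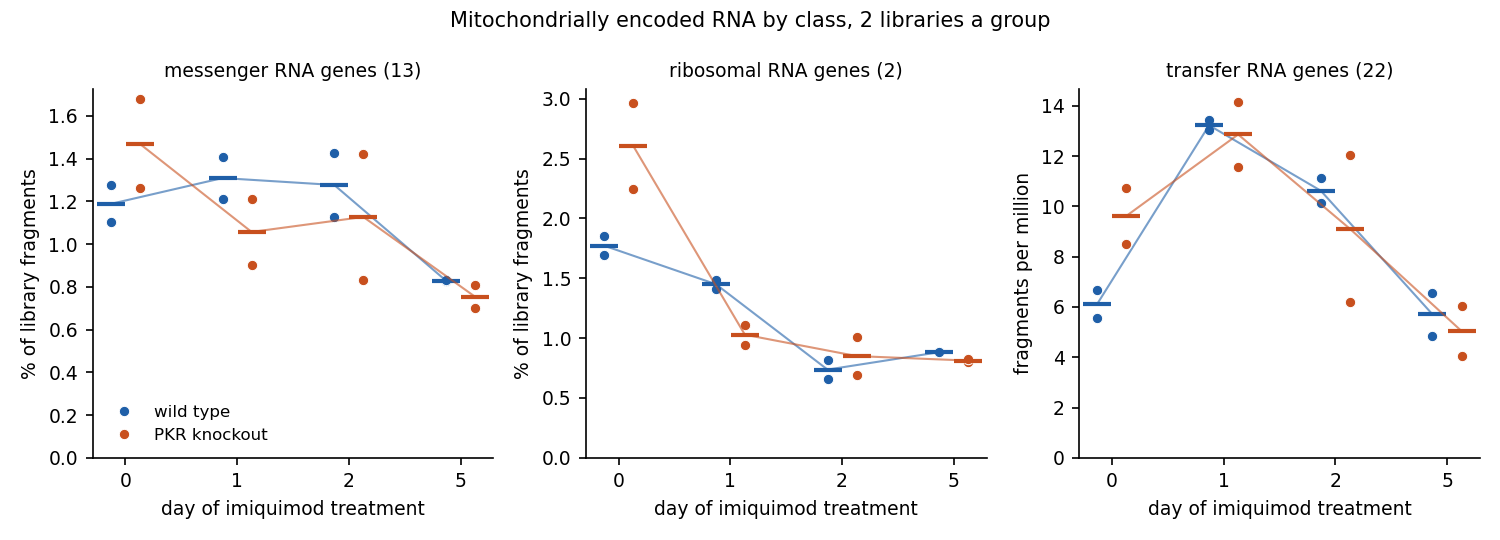
Share of library fragments on mitochondrial messenger and ribosomal RNA genes (percent) and on transfer RNA genes (FPM, fragments per megafragment) against day of treatment; points are libraries, bars and lines join the means of 2. Ribosomal shares of day 0 (1.69 to 2.97%) lie above all treated libraries (0.660 to 1.49%), whereas messenger shares fall clear of day 0 in both genotypes only on day 5.

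The ribosomal share was lower in every treated library than in any day 0 library. The part of the kit's ribosomal RNA depletion in this was not tested. The share was 1.85 and 1.69% in the wild type and 2.25 and 2.97% in the PKR knockout on day 0. It was 1.41 and 1.49% at day 1, 0.814 and 0.660% at day 2 and 0.884 and 0.881% at day 5 in the wild type. Knockout values were 0.946 and 1.11% at day 1, 0.695 and 1.01% at day 2 and 0.803 and 0.822% at day 5. On the log2 scale the wild-type differences from day 0 were -0.29, -1.27 and -1.004 on days 1, 2 and 5, and the knockout differences were -1.33, -1.63 and -1.67, against a replicate spread of 0.20. The plot of shares by class shows the knockout starting higher and reaching a similar level by day 2. The knockout start rests in part on 1 library: without knockout day 0 replicate 2 the 3 knockout differences were -1.13, -1.43 and -1.47. The day 2 difference was -1.36 without the library labelled knockout day 2 replicate 1.

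Both ribosomal RNA genes passed the test in all 6 comparisons with day 0. An effect of ribosomal RNA depletion on these changes was not tested. mt-Rnr2 (ENSMUST00000082390.1, 1094 to 2675) stood at 16476 and 16196 CPM in the wild type on day 0. It read 10576 and 11228 at day 1, 7428 and 6344 at day 2 and 8059 and 7745 at day 5. The knockout stood at 21412 and 29147 CPM on day 0, 8385 and 9466 at day 1, 6080 and 9610 at day 2 and 7414 and 7749 at day 5. No treated library reached the lowest day 0 library. The fitted log2 changes in the wild type were -0.58, -1.25 and -1.05 (SE 0.19 each; edgeR adjusted p = 0.0188, 3.81e-05 and 0.000293). Those of the knockout were -1.50, -1.69 and -1.74 (SE 0.19, 0.20 and 0.20; edgeR adjusted p = 7.26e-06, 1.12e-06 and 1.01e-06). mt-Rnr1 (ENSMUST00000082388.1, 70 to 1024) fell by 0.59, 1.13 and 0.87 in the wild type and by 1.33, 1.19 and 1.27 in the PKR knockout (SE 0.18 each). The mt-Rnr1 call of wild-type day 1 ended without wild-type day 0 replicate 2 (-0.50) or day 1 replicate 1 (-0.52), and that of mt-Rnr2 without any 1 of the 4 libraries (-0.615 to -0.522). Both calls also ended with scaling by library totals alone (edgeR adjusted p = 0.205 for mt-Rnr1 and 0.258 for mt-Rnr2, the highest over their alternatives, which began at 0.000199 and 0.000239). Without the library labelled knockout day 2 replicate 1 the day 2 changes were -1.02 and -1.40, still past the threshold.

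Scaling bears on day 1 above all. With library totals alone, in place of TMM factors, the median change of all genes tested moved from -0.07 to 0.22 at day 1 in the wild type and from -0.04 to 0.10 in the PKR knockout. In the wild type the genes called higher and lower then went from 4107 and 4254 to 6259 and 2253. The comparisons of one genotype share their day 0 libraries, so they are not independent of each other.

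Over all classes, 9 of the 29 genes that passed the filter on low counts were called on day 1 in the wild type, 6 higher and 3 lower, where 21.9% of the 18744 genes tested were called higher and 22.7% lower. With library totals alone the split was 10 higher and 1 lower. On day 2 the wild type had 6 higher and 2 lower, against 22.3% and 23% of all genes. On day 5 it had 2 higher and 7 lower, against 21.5% and 18.1%. The knockout had 2 higher and 5 lower on day 1 (20.7% and 20.9% of all genes) and 2 higher and 4 lower on day 2 (24.1% and 25.6%). On day 5 the knockout had 1 higher and 18 lower of 29, where 22.8% of all genes were called higher and 22.1% lower. Lower calls on day 5 in the knockout took a larger share of the mitochondrial genes than of all genes, and the other counts were near or below the share over all genes. The counts depend on single libraries and, in the knockout, on the groups fitted. The share of all genes called in those fits is not given here. A general loss or gain of calls and one particular to these genes thus cannot be told apart. Leaving out wild-type day 0 replicate 2 left 1 call on day 1 (mt-Te) and 4 at day 2, and leaving out either wild-type day 1 library left 3 at day 1. The wild-type day 5 count was 3 to 4 when any 1 of its 4 libraries was left out. Without knockout day 0 replicate 2 the knockout counts were 4 at day 1 and 5 at day 5, without knockout day 1 replicate 1 it was 4 at day 1, and without knockout day 5 replicate 2 it was 7 at day 5. Without the library labelled knockout day 2 replicate 1 the day 2 count was 5, and without knockout day 2 replicate 2 it was 16. Fitting the compared groups only gave 15 calls on day 1 and 3 on day 2 in the knockout. The 8 genes that did not pass the filter were all transfer RNAs.

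**Figure D2:**
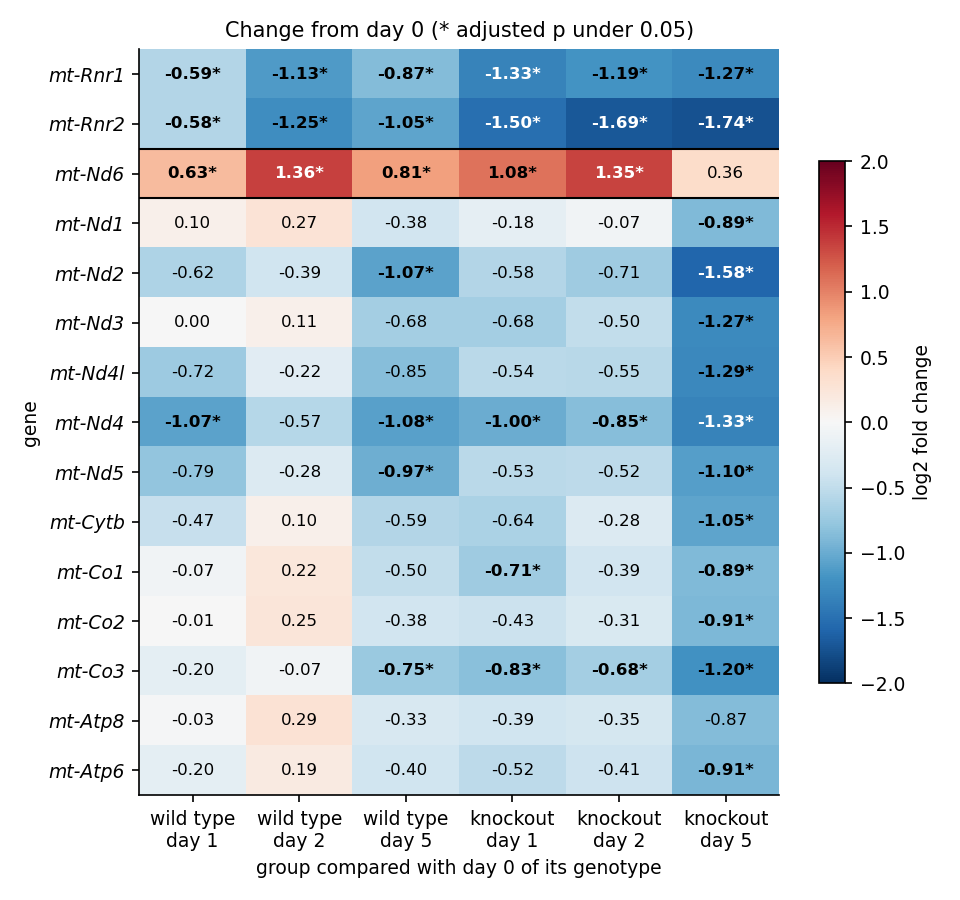
Fitted log2 change from day 0 for the 2 ribosomal RNAs, mt-Nd6 and the 12 heavy-strand messengers (rows) in 6 comparisons (columns); colour and number give the change, and a star marks an edgeR adjusted p under 0.05. The ribosomal rows are lower throughout, mt-Nd6 is the one row with values above 0 in every column, and the knockout day 5 column has 11 of 12 heavy-strand messengers called lower.

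Of the 12 heavy-strand messengers none was called higher in any of the 6 comparisons. Called lower were 1 at day 1, 0 at day 2 and 4 at day 5 in the wild type, where 22.7%, 23% and 18.1% of all genes were. On day 2 edgeR gave 0 of the 12 also at an unadjusted p under 0.05, and DESeq2 called 0. In the knockout 3, 2 and 11 were called lower, where 20.9%, 25.6% and 22.1% of all genes were. The counts of days 1 and 2 were near or below these shares in both genotypes. The median change of the 12 was -0.20, 0.10 and -0.64 in the wild type, beside medians over all genes of -0.07, -0.06 and -0.01, and the first of them turned to 0.09 with library totals alone. In the knockout the medians were -0.56, -0.45 and -1.07, beside -0.04, -0.06 and -0.03 over all genes. The day 5 calls of the knockout were all messengers of this strand except mt-Atp8 (-0.87, SE 0.34). Without knockout day 0 replicate 2, which held the highest messenger share of all libraries, only mt-Co3 of the 11 was still called.

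Among the complex I messengers mt-Nd4 was called in 5 of the 6 comparisons. Its level was 237 and 249 FPKM in the wild type on day 0, 134 and 150 at day 1, 145 and 174 at day 2 and 120 and 114 at day 5. Knockout values were 238 and 301 at day 0, 130 and 169 at day 1, 94.3 and 208 at day 2 and 117 and 98.4 at day 5. All treated libraries lay below both day 0 libraries of their genotype. The log2 changes were -1.07, -0.57 and -1.08 in the wild type (SE 0.32, 0.31 and 0.32; edgeR adjusted p = 0.0184, 0.162 and 0.0197). Those of the knockout were -0.999, -0.85 and -1.33 (SE 0.31, 0.31 and 0.32; edgeR adjusted p = 0.0267, 0.0451 and 0.00605). The knockout day 2 value was -0.36 without the library labelled knockout day 2 replicate 1 and was then not called. Every one of these 5 calls ended when some single library was left out, and mt-Nd4 is among the genes with a nuclear copy.

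mt-Nd2, with few words shared with annotated nuclear transcripts, held 359 and 317 FPKM in the wild type on day 0 and 157 and 170 at day 5. The knockout held 365 and 457 at day 0 and 151 and 126 at day 5. Its day 5 changes were -1.07 (SE 0.37) and -1.58 (SE 0.38), both called. mt-Nd5 was called on day 5 as well, at -0.97 and -1.10. The 4 wild-type calls of day 5, of mt-Nd2, mt-Co3, mt-Nd4 and mt-Nd5, each ended when any 1 of the 4 libraries compared was left out. mt-Nd1, whose gene adjoins the ribosomal RNAs, was called only on day 5 in the knockout (-0.89, SE 0.25), and its other changes ran from -0.38 to 0.27.

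The complex IV messengers mt-Co1, mt-Co2 and mt-Co3 had changes of -0.20 to 0.25 on days 1 and 2 in the wild type, none of them called. mt-Co3 was called on day 5 in the wild type (-0.75, SE 0.24) and on all 3 days in the knockout (-0.83, -0.68 and -1.20, SE 0.24 each). Its level in the knockout was 1946 and 2729 FPKM on day 0, 1231 and 1681 at day 1, 1120 and 1837 at day 2 and 1045 and 998 at day 5. Its day 1 value was -0.54 without knockout day 0 replicate 2 and -0.64 without knockout day 1 replicate 1, and was then not called. The day 2 call of mt-Co3 ended without the library labelled knockout day 2 replicate 1 (-0.34) and without knockout day 0 replicate 2 (-0.33). The day 5 call of mt-Co3 in the knockout is the 1 of the 21 heavy-strand calls that held under every alternative run. mt-Co1 fell by 0.71 at day 1 and 0.89 at day 5 in the knockout (SE 0.22 each), and both calls ended without knockout day 0 replicate 2 (-0.45 and -0.59). mt-Cytb of complex III was called on day 5 in the knockout (-1.05, SE 0.25), and its nuclear word share was 0. Of the ATP synthase pair, mt-Atp6 was called on day 5 in the knockout (-0.91, SE 0.29), and mt-Atp8 in no comparison. The reading frames of this pair overlap over 43 bases.

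mt-Nd6, a complex I subunit and the only light-strand messenger, was called higher in 5 of 6 comparisons, where no heavy-strand messenger was called higher in any. Its level was 40.1 and 28.8 FPKM in the wild type on day 0, 55.6 and 74.6 at day 1, 79.7 and 91.9 at day 2 and 55.7 and 66.7 at day 5. Knockout values were 43.3 and 35.1 at day 0, 93.6 and 89.5 at day 1, 96.2 and 107 at day 2 and 60.4 and 41.0 at day 5. Treated libraries lay above both day 0 libraries of their genotype in 5 of 6 groups, and the exception was day 5 in the knockout. The log2 changes were 0.63, 1.36 and 0.81 in the wild type (SE 0.19 each; edgeR adjusted p = 0.0135, 3.22e-05 and 0.00332). The knockout had 1.08, 1.35 and 0.36 (SE 0.19 each; edgeR adjusted p = 0.000315, 2.97e-05 and 0.136). The knockout day 5 value was 0.67 without knockout day 5 replicate 2 and was then called, as it also was without the filter on low counts (0.37) and with the compared groups only (0.38), and its edgeR adjusted p over all alternatives ran from 0.0185 to 0.684. The 4 calls other than wild-type day 1 held under every alternative run. The wild-type day 1 call ended without wild-type day 0 replicate 2 (0.48) or day 1 replicate 2 (0.41), with edgeR adjusted p over the alternatives from 9.47e-06 to 0.148. Without the library labelled knockout day 2 replicate 1 the day 2 value was 1.46, still called.

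Set against the mean of the 12 heavy-strand messengers in the same library, mt-Nd6 does not depend on the scaling between libraries. It stood at 3.49 and 3.02% of that mean in the wild type and 3.87 and 2.32% in the PKR knockout on day 0. In the wild type it stood at 5.13 and 5.93% at day 1, 7.99 and 7.22% at day 2 and 7.56 and 8.84% at day 5. The knockout stood at 11.4 and 7.94% at day 1, 13.2 and 8.33% at day 2 and 8.4 and 6.61% at day 5. All 12 treated libraries exceeded all 4 day 0 libraries. The log2 differences from day 0 were 0.76, 1.23 and 1.33 in the wild type and 1.66, 1.81 and 1.31 in the PKR knockout, against a replicate spread of 0.31. The knockout day 2 difference was 1.47 without the library labelled knockout day 2 replicate 1, which held the highest ratio. Using only heavy-strand messengers with under 50% of their words in nuclear transcripts gave 0.78, 1.19 and 1.28 in the wild type and 1.5, 1.74 and 1.3 in the PKR knockout. Even at its highest ratio, light-strand messenger was a small part of the whole: mt-Nd6 held 0.109 to 0.600% of the summed messenger counts.

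**Figure D3:**
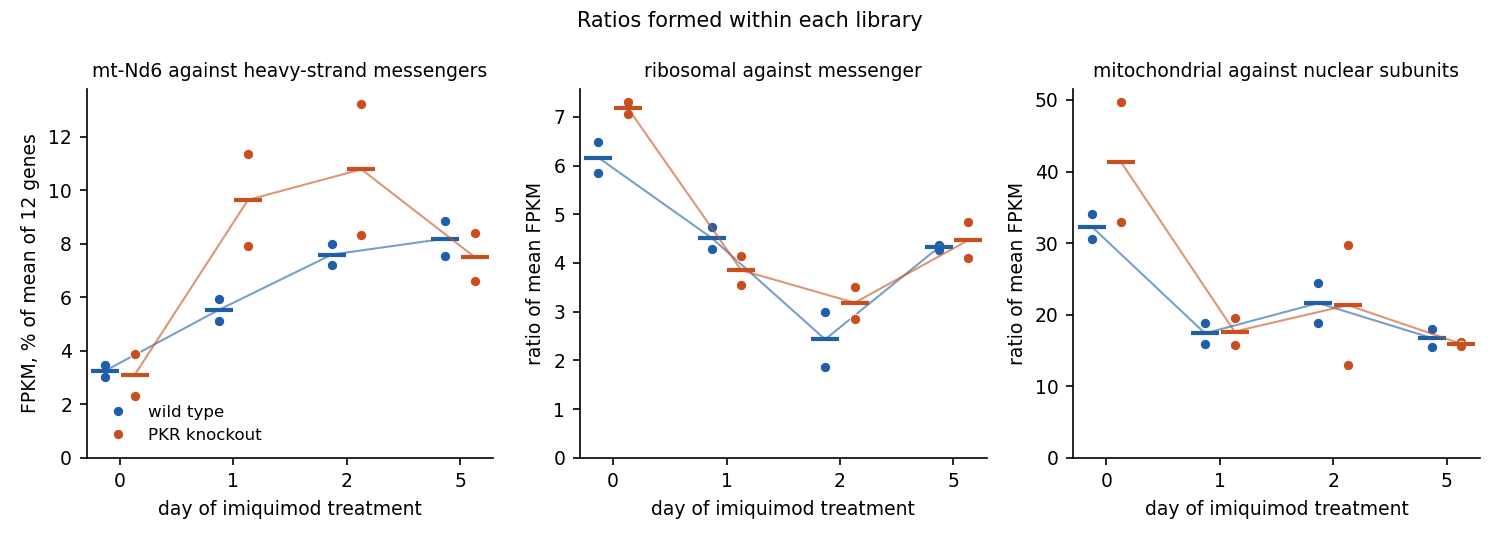
Ratios formed within each library against day of treatment: mt-Nd6 as percent of the mean FPKM of the 12 heavy-strand messengers, mean FPKM of ribosomal over messenger genes, and mean FPKM of mitochondrial over nuclear respiratory-chain subunits; points are libraries, bars are means of 2. The first ratio is above, and the others below, the day 0 range (2.32 to 3.87%, 5.84 to 7.30 and 30.5 to 49.7) in all 12 treated libraries.

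Per length, the ribosomal RNAs were lower relative to the messengers in every treated library. Forming the ratio within a library does not remove an effect of the ribosomal RNA depletion, which was not tested. The ratio of mean FPKM of the 2 ribosomal RNAs over that of the 13 messengers was 5.84 and 6.48 in the wild type and 7.30 and 7.05 in the PKR knockout on day 0. In the wild type it was 4.73 and 4.29 at day 1, 2.99 and 1.87 at day 2 and 4.38 and 4.26 at day 5. Knockout values were 4.15 and 3.55 at day 1, 3.51 and 2.85 at day 2 and 4.10 and 4.83 at day 5. The plot of ratios within a library shows its lowest group on day 2 in both genotypes, with log2 differences from day 0 of -1.38 and -1.18 and a replicate spread of 0.21. The wild-type day 2 value ran from -1.72 to -1.04 with 1 library left out, and the knockout value was -1.33 without the library labelled knockout day 2 replicate 1.

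Transfer RNAs were counted rarely. All 22 together had 142 to 847 fragments in a library (4.05 to 14.2 FPM, fragments per megafragment of the library with no scaling for composition). What these fragments come from, mature transfer RNAs or uncut precursors, was not tested. mt-Tl1, the leucine transfer RNA that lies between mt-Rnr2 and mt-Nd1, took 49 to 288 of them. mt-Tm, for methionine, had 16 to 156, and mt-Th, for histidine, had none in 9 libraries. The 4 genes below are shown because they are among those called whose counts follow; each is the whole gene from GENCODE mouse release 21, with the anticodon in capitals.
mt-Tl1: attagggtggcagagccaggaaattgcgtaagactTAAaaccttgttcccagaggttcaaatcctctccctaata
mt-Tl2: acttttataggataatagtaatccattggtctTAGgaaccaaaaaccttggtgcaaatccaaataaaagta
mt-Tt: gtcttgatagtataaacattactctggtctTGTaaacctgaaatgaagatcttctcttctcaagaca
mt-Te: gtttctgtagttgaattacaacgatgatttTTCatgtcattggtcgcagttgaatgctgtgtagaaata
mt-Tl1 lies at 2676 to 2750, mt-Tl2 (the other leucine transfer RNA) at 11671 to 11741 and mt-Tt (threonine) at 15289 to 15355 on the plus strand. mt-Te (glutamate) lies at 14071 to 14139 on the minus strand, next to mt-Nd6.

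Summed transfer RNA fragments were 6.69 and 5.57 FPM in the wild type on day 0, 13.4 and 13.02 at day 1, 10.1 and 11.1 at day 2 and 4.84 and 6.57 at day 5. Those of the knockout were 8.51 and 10.7 at day 0, 11.6 and 14.2 at day 1, 6.18 and 12.04 at day 2 and 6.03 and 4.05 at day 5. Both day 1 groups lay above their day 0, and day 5 lay below it only in the knockout. The log2 differences from day 0 were 1.12, 0.80 and -0.11 in the wild type and 0.42, -0.15 and -0.95 in the PKR knockout, with a replicate spread of 0.33. The knockout day 2 difference changed sign with the library left out, from 0.33 without the library labelled knockout day 2 replicate 1 to -0.63 without replicate 2.

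Of the 14 transfer RNAs tested, 5 were called higher on day 1 in the wild type (mt-Tl1, mt-Tk, mt-Tl2, mt-Te and mt-Tt) and 5 at day 2 (mt-Tw, mt-Td, mt-Tk, mt-Tl2 and mt-Te), where 21.9% and 22.3% of all genes were. With library totals alone the day 1 count was 9, with mt-Td, mt-Tf, mt-Tv and mt-Tw called as well. On day 5 mt-Te was higher and mt-Tl1 lower. In the knockout only mt-Tt was called higher on days 1, 2 and 5, and mt-Tl1, mt-Tw, mt-Tn, mt-Tr and mt-Te were called lower on day 5, where 22.1% of all genes were. mt-Tl1, the best counted, had 122 and 150 fragments in the wild type on day 0, 268 and 288 at day 1, 126 and 190 at day 2 and 50 and 61 at day 5. Knockout libraries had 145 and 145, 163 and 234, 74 and 157, and 83 and 49 on the same days. Its log2 changes were 0.66, 0.57 and -0.88 in the wild type and 0.35, -0.15 and -0.90 in the PKR knockout (SE 0.25 to 0.28). Day 1 was above day 0 and day 5 below it in the wild type (edgeR adjusted p = 0.0416 and 0.0190), and day 5 was below it in the knockout (0.0127). The call of wild-type day 1 ended with the sum of isoforms and without any 1 of the 4 libraries.

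mt-Tt had 5 and 8 fragments in the wild type on day 0 and 21 and 34 at day 1 (log2 change 1.68, SE 0.49, edgeR adjusted p = 0.00889). Knockout libraries had 3 and 3 at day 0, 23 and 25 at day 1, 8 and 15 at day 2 and 6 and 12 at day 5. The knockout changes were 2.87, 2.10 and 1.82 (SE 0.56, 0.62 and 0.64), with day 1 called under every alternative run and day 2 at 2.42, still called, without the library labelled knockout day 2 replicate 1. mt-Te had 2 and 3 fragments in the wild type on day 0, 19 and 26 at day 1, 4 and 13 at day 2 and 8 and 15 at day 5. Knockout libraries had 7 and 7, 10 and 10, 7 and 4, and 2 and 0 on these days. These 2 genes and the other transfer RNAs rest on few counts: of their 20 calls 3 held under every alternative run (mt-Te on day 1 and mt-Tw on day 2 in the wild type and mt-Tt on day 1 in the PKR knockout). The day 5 calls of mt-Te had opposite signs, higher in the wild type (edgeR adjusted p = 0.00782) and lower in the knockout (0.0412), but the test of the difference between the genotypes did not pass (edgeR adjusted p = 0.408), and no fold is given for counts this low. mt-Tk, for lysine, had 4 and 4 fragments in the wild type on day 0, 21 and 22 at day 1 and 15 and 16 at day 2. Its knockout counts of 13 and 17 at day 0 and 14 and 17 at day 1 did not separate. mt-Tl2 had 10 and 5 fragments in the wild type on day 0, 25 and 33 at day 1, 22 and 22 at day 2 and 4 and 12 at day 5 (log2 changes 1.53, 1.90 and 0.47, SE 0.58, 0.59 and 0.68; edgeR adjusted p = 0.0382, 0.0133 and 0.614). Its groups of days 1 and 2 lay above day 0, and day 5 overlapped it. Knockout libraries had 11 and 14 at day 0, 16 and 24 at day 1, 7 and 22 at day 2 and 12 and 6 at day 5, with no call. Light-strand transfer RNAs as a whole had 11 to 90 fragments in a library.

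**Figure D4:**
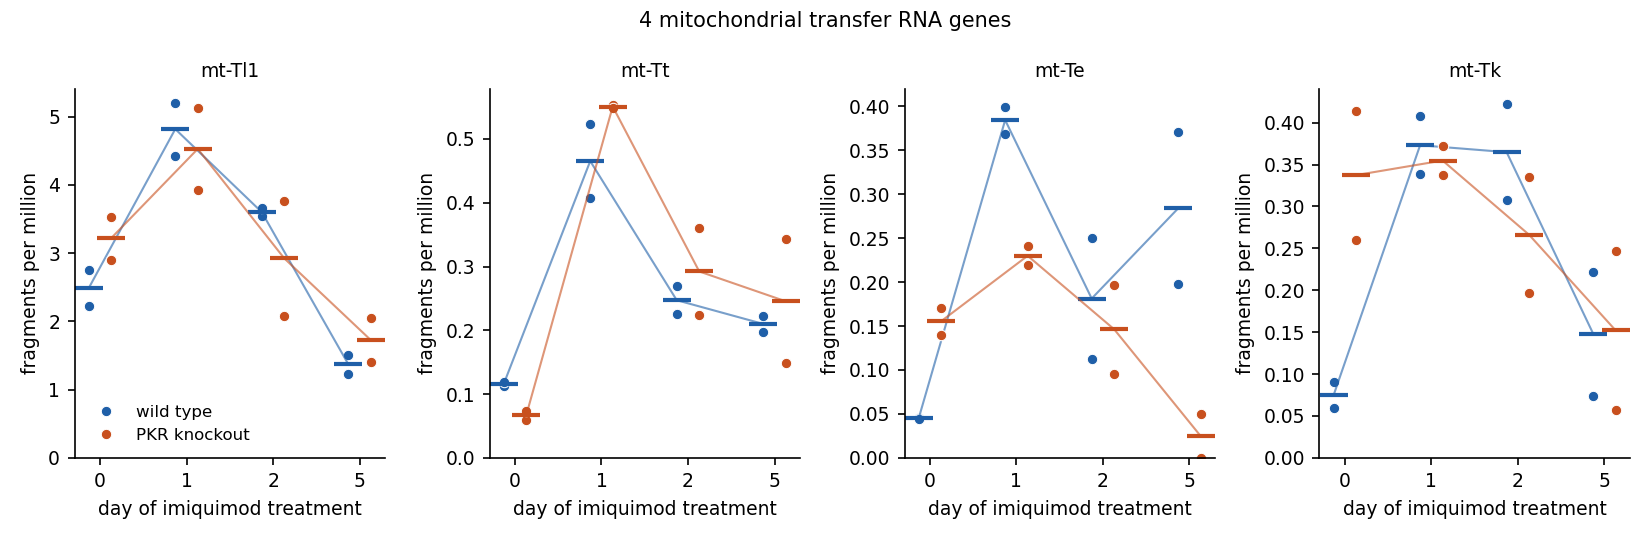
Transfer RNA fragments in FPM for mt-Tl1, mt-Tt, mt-Te and mt-Tk against day of treatment; points are libraries and bars are means of 2. mt-Te had 2 and 0 fragments in the knockout libraries of day 5 and 8 and 15 in those of the wild type, which shows how few counts these points rest on.

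The nuclear partners of the mitochondrial messengers were called higher in most cases on days 1 and 2 in both genotypes and in fewer on day 5. Of 71 nuclear subunits of complexes I, III, IV and the ATP synthase that were tested, 68, 63 and 46 were called higher on days 1, 2 and 5 in the wild type and 61, 55 and 34 in the PKR knockout. Of all genes 21.9%, 22.3% and 21.5% were called higher in the wild type, with 20.7%, 24.1% and 22.8% in the PKR knockout. Called lower were 0, 0 and 1 in the wild type and 0, 0 and 2 in the PKR knockout. Without the library labelled knockout day 2 replicate 1 the day 2 count was 40 (15 of 36 in complex I, 6 of 9 in complex III, 9 of 11 in complex IV and 10 of 15 in the ATP synthase). On day 5 in the wild type, fewer were called higher without wild-type day 5 replicate 2 or wild-type day 0 replicate 2. The share over all genes in those fits is not given here. Complex I had 34, 31 and 18 of 36 higher in the wild type and 30, 24 and 14 in the PKR knockout, with medians of 0.71, 0.58 and 0.35, and 0.60, 0.50 and 0.35. The medians of its 7 mitochondrial messengers were -0.62, -0.22 and -0.85, and -0.54, -0.52 and -1.27. Complex III had 8, 8 and 7 of 9 higher in the wild type, complex IV 11, 11 and 9 of 11, and the ATP synthase 15, 13 and 12 of 15. In the knockout these were 7, 7 and 6, then 11, 11 and 6, and 13, 13 and 8. Complex II, which has no mitochondrial subunit, had 3, 3 and 2 of 4 higher in either genotype, and 2 on day 2 in the knockout without that library. Among examples, Atp5g1, which encodes the ring subunit of the ATP synthase, rose by 1.67, 1.58 and 1.17 in the wild type and by 1.59, 1.504 and 1.13 in the PKR knockout (SE 0.18 each). Ndufa12 of complex I rose by 1.54 at day 1 in the wild type (SE 0.15), and Cox5a of complex IV by 1.10 (SE 0.16). Atp5e was among the few that fell, by 0.74 and 0.93 at day 5 (SE 0.17 each).

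**Figure D5:**
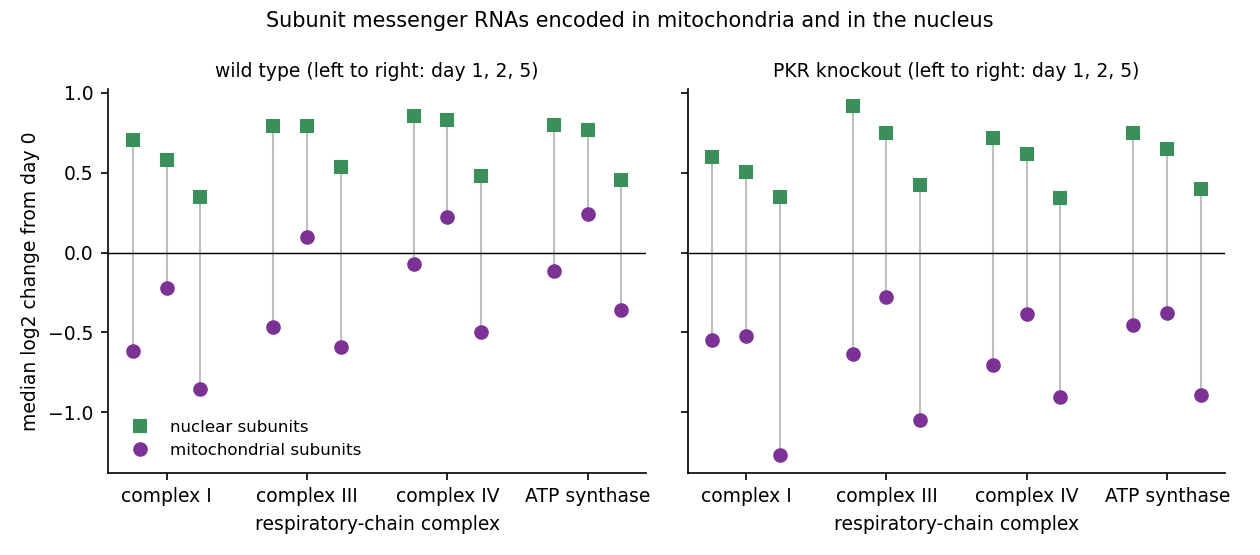
Median log2 change from day 0 of mitochondrial (circles) and nuclear (squares) subunit messengers for 4 complexes, with days 1, 2 and 5 from left to right in each cluster, wild type on the left and knockout on the right. Nuclear medians are above 0 in all 24 cases and above the mitochondrial median of the same complex and day, and the gap is widest for complex I on day 5 in the knockout (0.35 against -1.27).

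The ratio of mean FPKM of the 13 mitochondrial messengers to that of the 71 nuclear subunits, again formed within a library, was 30.5 and 34.1 in the wild type on day 0. It was 15.9 and 18.9 at day 1, 18.8 and 24.5 at day 2 and 18.0 and 15.5 at day 5. Knockout values were 32.9 and 49.7 at day 0, 15.8 and 19.5 at day 1, 12.9 and 29.7 at day 2 and 16.2 and 15.7 at day 5. Every treated library lay below every day 0 library. The log2 differences from day 0 were -0.90, -0.59 and -0.95 in the wild type and -1.20, -1.04 and -1.34 in the PKR knockout, with a replicate spread of 0.37. The knockout day 2 value was -0.44 without the library labelled knockout day 2 replicate 1. With only the 6 messengers that had under 50% of their words in nuclear transcripts the values were -0.91, -0.55 and -0.89, and -1.03, -0.96 and -1.32.

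Messengers for proteins of the mitochondrial ribosome, which translates the 13 mitochondrial messengers and contains mt-Rnr1 and mt-Rnr2, were called higher in most cases on days 1 and 2 and in fewer on day 5. Of 78 such messengers, 70, 56 and 31 were called higher and 0, 0 and 2 lower on days 1, 2 and 5 in the wild type. In the knockout 63, 51 and 23 were higher and 0, 1 and 3 lower, and the day 2 count of higher calls was 35 without the library labelled knockout day 2 replicate 1. On day 5 the wild-type count was 14 without wild-type day 5 replicate 2 and 20 without wild-type day 0 replicate 2, and the knockout count was 15 without knockout day 5 replicate 1. With all libraries 21.5% of all genes were called higher on day 5 in the wild type and 22.8% in the PKR knockout. The matching shares without these libraries are not given here, so the smaller counts cannot be set against them. The medians were 0.80, 0.51 and 0.28, and 0.61, 0.51 and 0.17. Mrpl13 rose by 1.36 (SE 0.19) and Mrps28 by 1.29 (SE 0.22) on day 1 in the wild type. Both RNAs of this ribosome were called lower in all 6 comparisons, and the part of ribosomal RNA depletion in those calls was not tested. The 10 proliferation genes rose on the same days, and their part in this was not tested.

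Genes that make and process mitochondrial RNA were mixed. Of 16 transcription and replication genes, 6 rose and 2 fell on day 1, 3 rose and 5 fell on day 2 and 0 rose and 4 fell on day 5 in the wild type, where 21.9%, 22.3% and 21.5% of all genes were called higher and 22.7%, 23% and 18.1% lower. In the knockout the counts were 4 and 3, 2 and 5, and 0 and 6, where 20.7%, 24.1% and 22.8% of all genes were called higher and 20.9%, 25.6% and 22.1% lower. Most of these counts were near the shares over all genes, and with 1 compared library left out those that rose in the wild type were 3 on day 1, 1 to 3 on day 2 and 0 to 1 on day 5, and those that fell were 0 to 1, 1 to 4 and 1 to 3. Polrmt, the mitochondrial RNA polymerase, was called only on day 5 in the wild type (-0.44, SE 0.16). Tfam, which packages mitochondrial DNA and starts its transcription, rose by 0.49 at day 1 in the wild type and fell by 0.33 and 0.53 on days 2 and 5 in the PKR knockout (SE 0.12 each). Tfb2m, the partner of the polymerase at promoters, was called on day 5 in the knockout (-0.45, SE 0.14). Of 27 processing and stability genes, 15, 10 and 4 rose and 0, 2 and 5 fell in the wild type, and 9, 7 and 4 rose and 0, 4 and 7 fell in the knockout. Beside the same shares over all genes, the counts that rose were higher on day 1 in both genotypes and on day 2 in the wild type. The other counts of the 27 were near or below those shares. With 1 compared library left out, those that rose ran from 11 to 16, 3 to 8 and 1 to 5 in the wild type and from 7 to 9, 6 to 8 and 2 to 5 in the knockout, and those that fell on day 5 from 1 to 3 and from 4 to 6. With library totals alone 24 rose on day 1 and 6 on day 2 in the wild type, and on day 1 more of all genes were then called higher as well. On day 2 in the knockout 1 rose and 5 fell of the 16, and 6 rose and 3 fell of the 27, without the library labelled knockout day 2 replicate 1. Slirp and Lrpprc form a complex that stabilises heavy-strand messengers. Slirp rose by 1.29, 0.75 and 0.69 in the wild type and by 1.07 and 0.81 on days 1 and 2 in the PKR knockout (SE 0.15 to 0.16), and Lrpprc by 0.73 and 0.49 at day 1 (SE 0.11 each). Supv3l1, the helicase that removes light-strand RNA, was called higher in all 6 comparisons, by 0.76, 0.43 and 0.38, and by 0.95, 0.56 and 0.43 (SE 0.14 each). Pnpt1, which encodes PNPase and is induced by interferon, rose by 0.93 at day 1 in the wild type (SE 0.14), and its knockout day 1 value of 0.35 (SE 0.14) did not pass. A call in the wild type alone does not show that the genotypes differed. Rexo2, an oligonuclease that clears short RNAs in mitochondria, rose by 2.23 and 2.35 at day 2 (SE 0.23 each). Without the library labelled knockout day 2 replicate 1 the day 2 changes in the knockout were -0.51 for Tfam, 0.71 for Slirp, 0.48 for Supv3l1 and 1.95 for Rexo2, all 4 still called.

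No mitochondrial gene was called between the genotypes. Of 29 tested, 0 were called on day 0, 1, 2 or 5, where 0.0213%, 0.187%, 0% and 0.00534% of all genes were called, and 0 in the average over days, where 0.0267% were. At an unadjusted p under 0.05 in edgeR there were 7, 3, 1 and 2 on these days and 2 in the average. DESeq2 called 1 of them, mt-Nd6 at day 1 (log2 difference 0.70), where edgeR gave 0.69 (SE 0.19, adjusted p = 0.163). Without the filter on low counts edgeR called mt-Nd6 at day 1 and mt-Rnr2 at day 0 (0.62). On day 0 the fitted difference was above 0 in 28 of 29 genes, though libraries of the genotypes overlapped for some of them, such as mt-Nd5. The median difference was 0.43, beside 0.0006 over all genes. These genes were measured in the same libraries, so their signs are not independent. mt-Rnr2 differed on day 0 by 0.63 (SE 0.19, edgeR adjusted p = 0.716), with an interval of 2 SE on each side from 0.25 to 1.01. Averaged over days the heavy-strand messengers differed by -0.04 to 0.14, with intervals of 2 SE that lay between -0.30 and 0.50. The messenger share differed by -0.10 and the ribosomal share by 0.03 in that average, each under its replicate spread. With any 1 library left out these ran from -0.193 to -0.00026 and from -0.0383 to 0.095. The genotype tests of day 2 and of the average include the library labelled knockout day 2 replicate 1, whose Eif2ak2 level went against its label. Gene values without that library are not given here for these tests. A low number of calls does not show that the genotypes had equal levels.

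The change from day 0 was not called as different between the genotypes for any of the 29 genes either. The shares of all genes called were 0.171%, 0% and 0% for days 1, 2 and 5. At an unadjusted p under 0.05 there were 4, 4 and 6 mitochondrial genes in edgeR. DESeq2 called mt-Rnr2 for day 1 (-0.91). Without the filter edgeR called mt-Rnr2 (-0.945), mt-Rnr1 (-0.77) and mt-Co1 (-0.66) for day 1, and mt-Rnr2 (-0.69) and mt-Te for day 5. For mt-Nd6 the differences were 0.45, -0.01 and -0.45 (SE 0.27 each), and none of the 3 passed. The day 2 values include the library labelled knockout day 2 replicate 1 and are not given here without it.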

How the data were processed

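Total RNA of 16 spleen libraries, made with a kit that is stranded and depletes ribosomal RNA, was sequenced. Per the file headers the deposited values are fragment counts per transcript; FPM, a signal that the authors computed as the count scaled to the library's total; and FPKM, as deposited, which is FPM per kilobase. The submitters' processing notes name mm10, bcl2fastq 2.17.1.14, Trimmomatic, HISAT2 and TopHat; the counting program is not given in the sources used here. Of 142604 transcripts, 1 was kept per symbol (highest mean count, protein-coding first, types from GENCODE mouse release 21, which matched 98.7% of identifiers); deposited starts count from 0 and were raised by 1. Genes were filtered with filterByExpr and tested with edgeR 4.0.16 in R 4.3.3 (robust quasi-likelihood F test, TMM factors on library totals, 8 group means, 8 residual degrees of freedom, two-sided, Benjamini-Hochberg over 18744 genes, calls at adjusted p under 0.05), after tests on simulated data. SE is the log2 change over the square root of F. DESeq2 1.42.0, other scalings, no filter, summed isoforms, compared groups only, a replicate block and leaving out each library were alternatives. Copies were sought as 50-base words in nuclear transcripts, with 50% of words as limit, chosen after seeing the data. Precision of low counts is limited by their number.

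The members, gene lists and tests were chosen with earlier results of these data known. Named genes were all mt- symbols, a panel of 8 and up to 2 per list and comparison with the largest called change and mean FPKM of 1 or more. Permutation tests planned for shares and ratios are not given, since these are scores over the members; they stand as descriptions. p-values measure the spread between pools of 2 mice.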

Additional observations from a re-analysis of the deposited data

How the results depend on the processing

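All 58 calls against day 0 kept their sign under every alternative, and 18 stayed past the threshold under all of them (10 of 12 ribosomal, 4 of 5 of mt-Nd6, 3 of 20 transfer and 1 of 21 heavy-strand messenger calls). With 1 of the 4 compared libraries left out, 18 of the 58 ended for none of them, 4 for 1, 18 for 2, 9 for 3 and 9 for all 4.

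With the summed counts of kept transcripts as denominator the ribosomal share differed from day 0 by -0.535 on day 1 in the wild type and by -1.45 on day 5 in the knockout. Fitting the compared groups only gave 15 members called on day 1 and 3 on day 2 in the knockout. Without the filter 1 member was called between genotypes on day 0 and 1 on day 1, 3 in the genotype difference of the day 1 change and 2 in that of day 5. DESeq2 called 1 between genotypes on day 1 and 1 in the genotype difference of the day 1 change.

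With 1 library left out, members called ran from 1 to 6, 4 to 6 and 3 to 4 on days 1, 2 and 5 in the wild type and from 4 to 7, 4 to 16 and 5 to 16 in the knockout. In the knockout the messenger share difference ran from -0.804 to -0.0326 on day 2. The ribosomal share difference ran from -1.53 to -1.13, -1.89 to -1.36 and -1.87 to -1.47 on days 1, 2 and 5. The transfer share difference ran from -0.629 to 0.33 on day 2. The log2 ratio of mt-Nd6 to heavy-strand messengers ran from 1.29 to 2.03, 1.44 to 2.18 and 0.944 to 1.68. The ratio of mitochondrial to nuclear subunits ran from -1.65 to -0.444 on day 2. The ribosomal to messenger ratio in the wild type ran from -1.72 to -1.04 on day 2. A lone library was assumed to vary like the other groups, and the calls over all genes in these fits are not given here. mt-Tm was the 1 gene called with the opposite sign: its knockout day 2 change was -1.45 without knockout day 2 replicate 2, 1.17 without the library labelled knockout day 2 replicate 1 and 0.40 with all libraries, with edgeR adjusted p over its alternatives from 0.0292 to 0.981. The cause of these shifts was not tested.

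With the replicate number as a block, members called were 10, 7 and 11 in the wild type and 9, 6 and 20 in the knockout on days 1, 2 and 5, and 0 in the 8 genotype and interaction comparisons. Deviations of same-numbered libraries correlated from -0.21 to 0.33 over 28 pairs of groups (median 0.01), with 4 over 0.1, so the numbers were not taken as a pairing. The count of transfer RNAs, at most 288 fragments for a gene, limits their tests. Over all single-gene results and alternatives, 132 values lost the threshold (40 results) and 68 gained it (47 results).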
